A study of Mus musculus with 8 samples.

Results

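The cell cycle genes described here were chosen by name from textbook knowledge of the cycle, with earlier results of these data known. They were 38 genes of G1, S phase and mitosis. Of these, 36 were measured by at least 1 probe set that the platform annotation assigns to that gene symbol alone, out of 22180 genes on the array. They comprised 5 of 6 genes of G1 and the G1/S transition, all 9 S-phase genes and 22 of 23 genes of G2 and mitosis. The probe set of Ccne2 also carries a second symbol, and Ccnb1 was not found under its symbol, so neither was analysed here. For Mcm7 and Top2a the annotation lists 2 further probe sets each, and for Nusap1 1, that also carry other symbols. These probe sets were left out. RNA came from hearts, labelled as myocardium, of 8 mice, 4 males and 4 females. All of the mice were Pcyt2+/-, that is heterozygous for a gene of phosphatidylethanolamine synthesis, and all were 8 months old. The labels call the hearts biological replicates and name no strain, and no heart of another genotype is analysed here. Both groups therefore carry the same genotype, and the comparison between groups is that of females with males.

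The cell cycle is driven by cyclin-dependent kinases. D-type and E-type cyclins carry a cell out of G1, the E2F factors then switch on the genes of DNA replication, and cyclins A and B with Cdk1 take the cell through G2 and mitosis. Most cardiomyocytes leave the cycle soon after birth, and in the adult heart much of the cycling takes place in endothelial, immune and connective tissue cells. In a whole-tissue sample such as this, fewer cells in cycle and less RNA per cell cannot be told apart.

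Promoters of mitotic genes commonly hold a cell cycle genes homology region (CHR), bound by the DREAM and MuvB complexes with B-Myb and FoxM1, and CCAAT boxes, bound by NF-Y. Promoters of replication genes more often hold E2F sites. RefSeq promoter windows (assembly GRCm38.p6, 250 bases before to 50 after the start of a gene) were matched by symbol for 28 of the 36 genes, which had 31 windows. The CHR was searched as TTTGAA or TTCGAA, the CCAAT box as CCAAT, and the E2F site as TTTCCCGC, TTTCGCGC, TTTGCCGC or TTTGGCGC, all on both strands. No motif contains another, although neighbouring matches can overlap. The 160 bases before the start are printed for the 4 mitotic genes that varied most between hearts, for Kif11 and Rrm2, which formed the closest pairs with other members, and for the helicase gene Mcm6 as an example with E2F sites. They run 5′ to 3′ along the gene's strand, and capitals mark matches to any of these motifs.
Cdk1 (chr10:69352913-69353072, - strand): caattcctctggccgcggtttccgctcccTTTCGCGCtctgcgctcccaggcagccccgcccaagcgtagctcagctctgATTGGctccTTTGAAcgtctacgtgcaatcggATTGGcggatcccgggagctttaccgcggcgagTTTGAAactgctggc
Ccnb2 (chr9:70421555-70421714, - strand): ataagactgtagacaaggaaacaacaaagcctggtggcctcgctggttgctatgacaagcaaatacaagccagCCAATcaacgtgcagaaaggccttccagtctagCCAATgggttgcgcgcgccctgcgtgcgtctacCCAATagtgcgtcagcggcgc
Top2a (chr11:99024190-99024349, - strand): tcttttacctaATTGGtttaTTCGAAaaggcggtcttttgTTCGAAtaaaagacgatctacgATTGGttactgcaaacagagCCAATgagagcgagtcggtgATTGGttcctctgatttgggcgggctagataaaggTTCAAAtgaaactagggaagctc
Nusap1 (chr2:119618138-119618297, + strand): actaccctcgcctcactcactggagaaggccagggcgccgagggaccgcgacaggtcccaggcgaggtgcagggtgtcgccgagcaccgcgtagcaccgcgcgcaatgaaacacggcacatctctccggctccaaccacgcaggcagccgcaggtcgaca
Kif11 (chr19:37376222-37376381, + strand): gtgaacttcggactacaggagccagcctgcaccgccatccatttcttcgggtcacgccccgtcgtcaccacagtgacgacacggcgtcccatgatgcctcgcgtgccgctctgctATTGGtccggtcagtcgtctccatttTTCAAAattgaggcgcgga
Rrm2 (chr12:24708094-24708253, + strand): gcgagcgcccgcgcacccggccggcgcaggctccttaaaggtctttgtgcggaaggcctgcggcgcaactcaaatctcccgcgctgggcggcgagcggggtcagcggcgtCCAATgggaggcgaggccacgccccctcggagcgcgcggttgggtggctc
Mcm6 (chr1:128359706-128359865, - strand): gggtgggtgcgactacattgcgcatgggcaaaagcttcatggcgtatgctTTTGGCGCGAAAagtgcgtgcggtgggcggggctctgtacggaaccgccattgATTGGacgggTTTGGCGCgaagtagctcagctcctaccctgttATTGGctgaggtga

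The Ccnb2 stretch held 3 CCAAT boxes at 87, 54 and 21 bases before the start, each 33 bases from the next. In Cdk1, an E2F match lay 131 bases before the start, CCAAT boxes lay at 80 and 48, and CHR matches lay at 71 and 15. The Top2a stretch held 4 CCAAT boxes and 3 CHR matches, and the Kif11 stretch held 1 of each, at 45 and 19 bases. Nusap1 had no match to any of the motifs in its window. Over the windows of the mitotic members, 15 of 18 held a CHR, against 19.2% of all windows, and 16 of 18 a CCAAT box. Both were held by 15 of 18 (83.3%), against 7.52% of all 32851 windows in the table. The 18 windows came from 17 genes, as Prc1 had overlapping windows that each held both. An E2F match was found in 4 of 9 windows of S-phase members (44.4%) and in 1 of 18 mitotic windows (5.56%), against 2.26% of all windows. All 9 S-phase windows held a CCAAT box, which 37.4% of all windows hold, and 2 held a CHR (22.2%, against 19.2%). The 9 S-phase windows came from 8 genes, as Mcm7 had 2, and the 4 G1 windows came from Ccnd3, with 2, Ccne1 and E2f1. Of the 4 G1 windows, 1 held a CCAAT box and 0 held a CHR or an E2F match. These are matches of letters and not measured binding.

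Each value in the deposited table, read here as log2, is a difference from the median of that probe set across the 8 arrays. A value of 0 is therefore the middle heart, and the level of a gene against another gene is not known. For the same reason the markers of heart muscle could not be used to check the labelled tissue by their level. The arrays were on a common scale, with medians between -0.0021 and 0.0023. Their number, not a depth, sets how precise a comparison can be. Over the cell cycle genes the SE of a female-to-male difference had a median of 0.057 in log2 units, and over all genes 0.050. Over all genes, limma found 7 that differed between females and males at an adjusted p under 0.05, or 0.0316%.

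**Figure D1:**
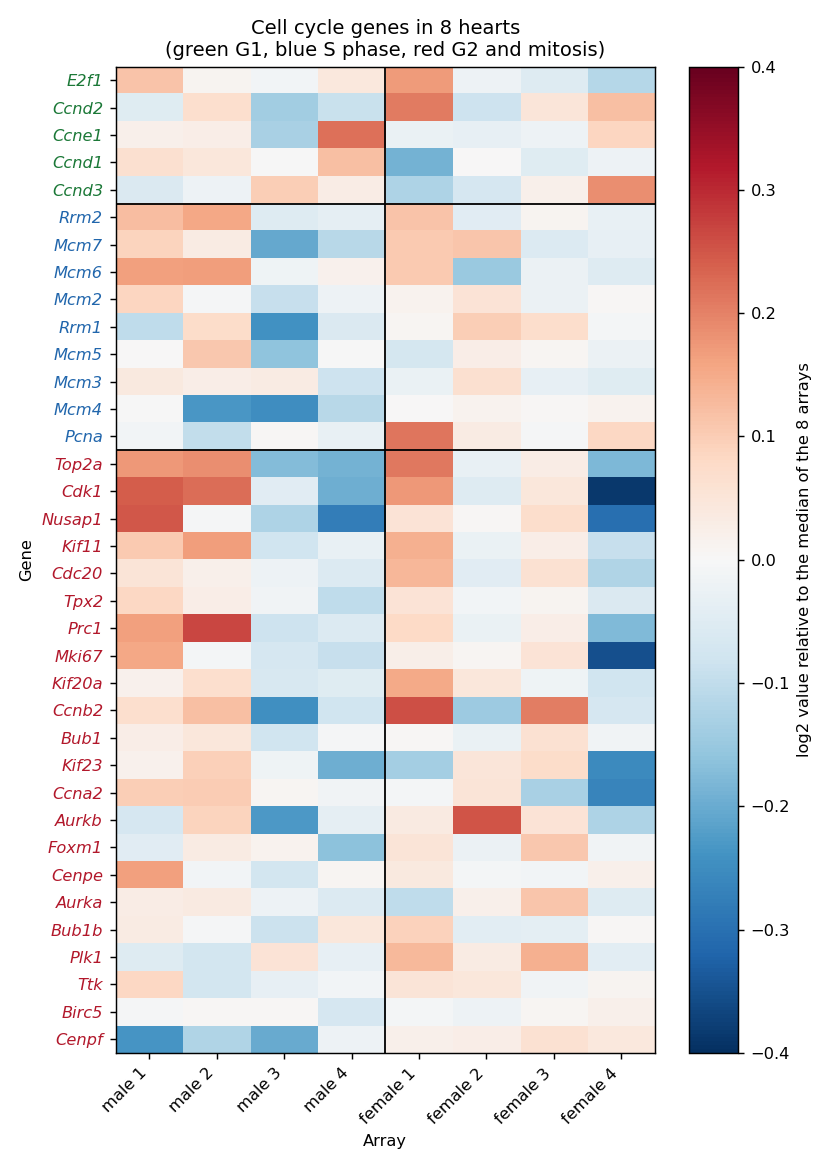
Log2 values of the 36 cell cycle genes (rows, by phase and then by their likeness to the mitotic mean) on the 8 arrays (columns), relative to each gene's median over the arrays. Most mitotic genes, in red type, are above their median in male 1, male 2, female 1 and female 3 and below it in male 3, male 4 and female 4.

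The genes of G2 and mitosis varied together from heart to heart, and this variation cut across the sexes. Of the 22 measured, 17 were above their own median in male 1, 15 in male 2, 18 in female 1 and 17 in female 3. Only 4 were above it in male 3, 2 in male 4 and 5 in female 4, and female 2 stood between with 10. Over all 22180 genes, between 47.7% (male 1) and 53% (male 3) were above their median on each array. The mean of all genes went the other way, with a Pearson's r of -0.69 with the mean of the 22 mitotic genes. Its range was small, from -0.0045 in male 1 to 0.0060 in male 3. The mean of the 22 genes was 0.061, 0.054, -0.072 and -0.076 in males 1 to 4 and 0.066, 0.0038, 0.043 and -0.11 in females 1 to 4. Both the lowest and the highest mean were thus in females, at female 4 and female 1.

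Cdk1, the kinase that drives entry into mitosis, had the largest spread of all 36 genes. Its log2 values were 0.24, 0.22, -0.047 and -0.19 in males 1 to 4 and 0.17, -0.053, 0.047 and -0.38 in females 1 to 4, a 1.54-fold range from female 4 to male 1. Males 1 and 2 and female 1 were the high hearts and male 4 and female 4 the low ones. Top2a encodes the topoisomerase that untangles sister chromatids, and had values of 0.17, 0.19, -0.17 and -0.19 in males 1 to 4 and 0.21, -0.029, 0.029 and -0.18 in females 1 to 4. Its order was much like that of Cdk1, except that male 3 was as low as male 4 and female 4. Nusap1, a gene of a spindle microtubule-binding protein, had values of 0.25, -0.0056, -0.12 and -0.28 in males 1 to 4 and 0.055, 0.0056, 0.072 and -0.30 in females 1 to 4. Here male 1 stood apart on the high side, while male 4 and female 4 were again lowest. Ccnb2 encodes a B-type cyclin, a partner of Cdk1, and had values of 0.068, 0.12, -0.25 and -0.080 in males 1 to 4 and 0.26, -0.14, 0.20 and -0.068 in females 1 to 4. Female 1 and female 3 were its highest hearts and male 3 its lowest, and the sexes overlapped for all 4 of these genes. The SDs over the 8 arrays were 0.22 for Cdk1, 0.18 for Nusap1, 0.18 for Ccnb2 and 0.17 for Top2a, against a median of 0.075 over all genes.

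Mki67, whose protein Ki-67 coats mitotic chromosomes and is a widely used mark of cycling cells, had values of 0.16, -0.0092, -0.066 and -0.093 in males 1 to 4 and 0.022, 0.0092, 0.056 and -0.35 in females 1 to 4. Female 4 lay far below the rest and male 1 was highest. The central spindle gene Prc1 had values of 0.16, 0.27, -0.082 and -0.053 in males 1 to 4 and 0.078, -0.027, 0.027 and -0.18 in females 1 to 4, so that male 2 was highest and female 4 again lowest. Aurkb, the kinase of the chromosomal passenger complex, departed from this order, with its highest value in female 2 (0.25) and its lowest in male 3 (-0.23). With the 4 genes above, these 3 completed the 7 mitotic genes of 22 (31.8%) whose SD lay in the top 10% of all genes. No G1 or S-phase member did so. Nor was such spread general among mitotic genes or limited to them: of the other lists described below, 3 of 35 other mitotic genes (8.57%), 3 of 26 other replication genes (11.5%), 2 of 17 other G1 regulators (11.8%) and 4 of 7 inhibitors of cyclin-dependent kinases (57.1%) lay in the top 10%. The median SD was 0.092 for mitotic, 0.092 for S-phase and 0.099 for G1 genes.

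The likeness of each gene to the group was measured as Pearson's r, over the 8 arrays, with the mean of the other mitotic genes. These correlations describe the 8 hearts and carry no p, since the genes share their arrays and were chosen with earlier results known. For 10 of 22 mitotic genes r was over 0.7, against 2.93% of all genes. For 21 of 22 it was above 0, against 48.4% of all genes. The 10 were, in order, Top2a (0.94), Cdk1 (0.90), Nusap1 (0.88), the spindle kinesin gene Kif11 (0.88), Cdc20 (0.86), an activator of the anaphase-promoting complex, and Tpx2 (0.85), a spindle factor that activates Aurora A. Prc1 (0.83), Mki67 (0.81), the cytokinesis kinesin gene Kif20a (0.79) and Ccnb2 (0.71) followed. Some of these genes varied less: Tpx2 ran from -0.10 in male 4 to 0.083 in male 1, and Cdc20 from -0.12 in female 4 to 0.13 in female 1.

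A middle set followed the group less closely. It held the checkpoint kinase gene Bub1 (0.64), the cytokinesis kinesin gene Kif23 (0.61), the cyclin gene Ccna2 (0.51), Aurkb (0.46) and Foxm1 (0.45), the transcription factor of many mitotic genes. The kinetochore kinesin gene Cenpe (0.39) and the spindle kinase gene Aurka (0.36) came next. Ccna2 was lowest in female 4, at -0.26, like Cdk1 and Mki67. The weakest likeness was that of the checkpoint gene Bub1b (0.25), the mitotic kinase gene Plk1 (0.22), the checkpoint kinase gene Ttk (0.21) and the passenger complex gene Birc5 (0.10). Birc5 hardly varied, with all values between -0.066 and 0.021, a spread lower than that of all but 5.61% of genes. The kinetochore gene Cenpf (-0.20) was the only mitotic gene with a negative r. Of the 8 mitotic genes with an r over 0.7 and a promoter window, 7 held both a CHR and a CCAAT box, and of the 9 with a lower r, 7 did.

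**Figure D2:**
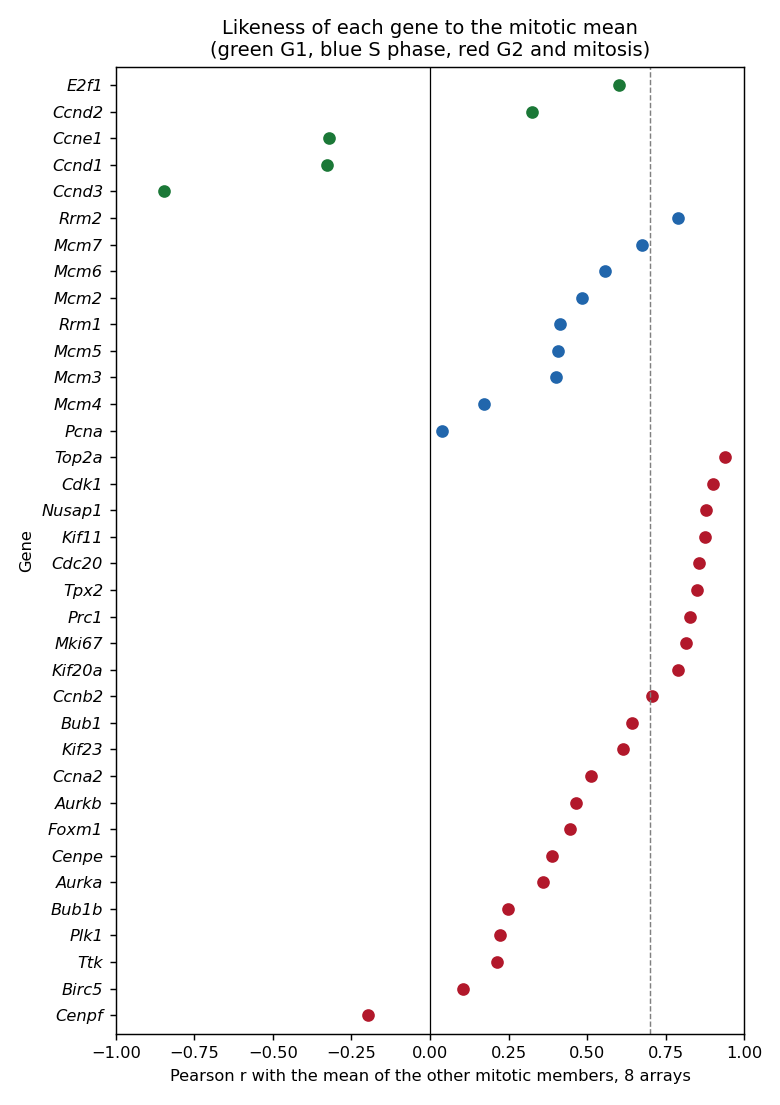
Pearson r over 8 arrays between each gene and the mean of the mitotic genes other than itself, with genes in rows and a dashed line at 0.7. Mitotic genes in red reach 0.94 for Top2a, S-phase genes in blue lie between 0.038 and 0.79, and G1 genes in green spread from -0.85 to 0.60.

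Pairs of members, taken from the same values and so not a separate line of evidence, gave the same picture. Within the mitotic group the median r of 231 pairs was 0.37, and 40 pairs (17.3%) had an r over 0.7, against a median of 0.001 and 2.8% for all 245965110 pairs of genes on the array. With the mean of each sex subtracted, so that only variation within a sex remained, the median was 0.39 and the share 19.9%, against 0.002 and 4.13% for all pairs. The closest pair of members was Top2a with Kif11, at 0.96. Within the S-phase group 3 of 36 pairs (8.33%) were over 0.7, with a median of 0.24. Within the G1 group 0 of 10 pairs were, with a median of 0.007. Between S-phase and mitotic genes the median was 0.29, with 17 of 198 pairs (8.59%) over 0.7, and between G1 and mitotic genes it was -0.11, with 3 of 110 pairs (2.73%).

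Other genes of mitosis, not members but also listed with earlier results known, showed a similar pattern over the hearts. The range of their mean was smaller. Of 36 listed, 35 were measured, and their mean was 0.054, 0.034, -0.054 and -0.031 in males 1 to 4 and 0.050, -0.015, 0.021 and -0.061 in females 1 to 4. Over the 8 arrays their mean correlated with that of the members at r = 0.96 (Spearman's rho = 0.95), at 0.98 without female 4 and male 4, the arrays farthest from the median, and at 0.97 with sex means subtracted. Of the 35, 11 (31.4%) had an r over 0.7 with the mitotic mean. They included Ube2c (0.95), the ubiquitin-conjugating enzyme of the anaphase-promoting complex, and Cks2 (0.91), a small subunit of cyclin-dependent kinases. Anln (0.87), a scaffold of the cytokinetic ring, Aspm (0.85), a spindle pole gene, and the checkpoint gene Mad2l1 (0.83) also lay among them. These 5 were picked for their values. Ube2c, for example, had values of -0.011, 0.069, -0.24 and -0.17 in males 1 to 4 and 0.15, 0.011, 0.042 and -0.28 in females 1 to 4. Female 1 and male 2 were highest and female 4, male 3 and male 4 lowest, while male 1, high for the members, was close to 0.

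**Figure D3:**
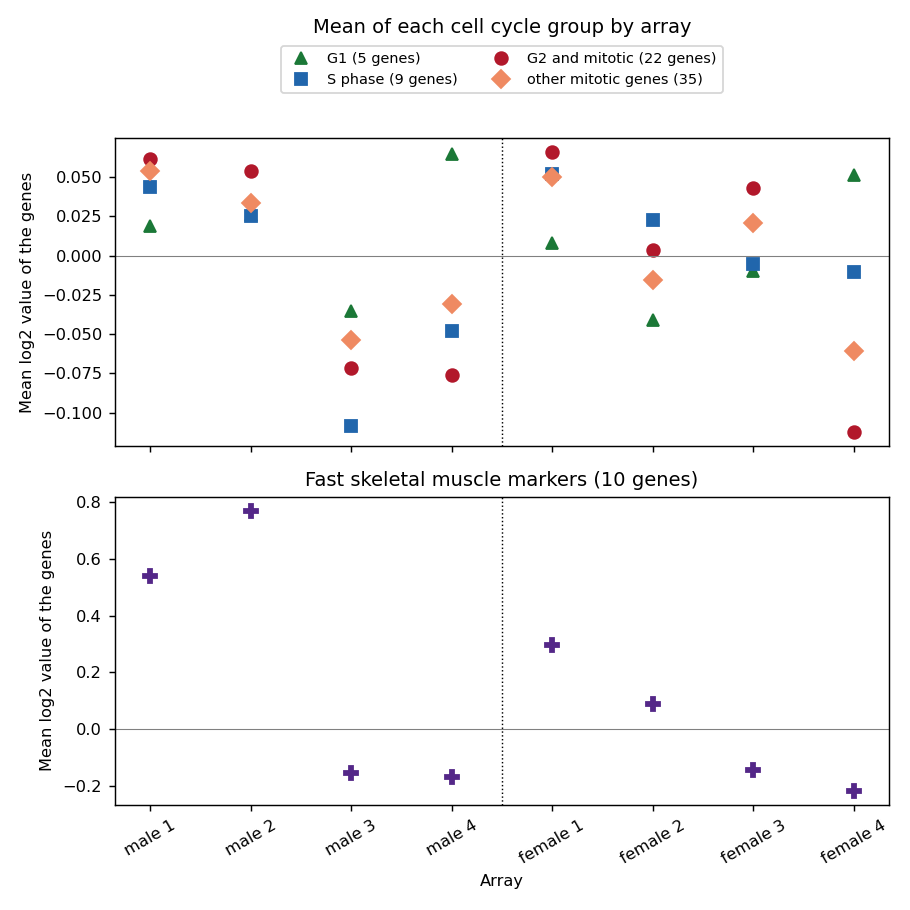
Mean log2 value on each array (males left, females right of the dotted line) of the G1, S-phase and mitotic genes and of 35 other mitotic genes above, and of 10 fast skeletal muscle markers below, on separate scales. The mitotic means run from -0.11 in female 4 to 0.066 in female 1, and the skeletal muscle markers are highest in male 2, male 1 and female 1.

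The S-phase genes followed the mitotic genes in part. Their mean was 0.043, 0.025, -0.11 and -0.048 in males 1 to 4 and 0.052, 0.023, -0.0052 and -0.010 in females 1 to 4. Male 3 was lowest and female 1 highest, and female 4, the lowest heart for mitotic genes, was close to 0. Over the 8 arrays the S-phase and mitotic means correlated at r = 0.74 (rho = 0.88), at 0.92 without female 4 and male 4, and at 0.77 with sex means subtracted. With any single array left out r stayed between 0.69 and 0.89. All 9 S-phase genes had an r above 0 with the mitotic mean, against 48.4% of all genes, but only Rrm2 was over 0.7 (0.79).

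Ribonucleotide reductase, which makes the deoxynucleotides for replication, gave different patterns for its subunits. Rrm2, the small subunit made in S phase, had values of 0.12, 0.15, -0.051 and -0.035 in males 1 to 4 and 0.11, -0.046, 0.010 and -0.029 in females 1 to 4. Males 1 and 2 and female 1 were high and the other 5 hearts were near or below 0. Rrm2 was the only member with 2 probe sets of its symbol alone, which correlated at r = 0.57. Probe set 17274540 ran from -0.11 in male 3 to 0.29 in male 2, while 17547690 stayed between -0.043 and 0.025, so the mean understates the first. Rrm1, the large subunit, had values of -0.10, 0.073, -0.24 and -0.059 in males 1 to 4 and 0.0078, 0.10, 0.069 and -0.0078 in females 1 to 4. Its lowest heart was male 3 and its highest female 2, and its r with the mitotic mean was 0.41. Rrm2 with Kif11 was the second closest pair of all members, at r = 0.96.

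The Mcm genes encode the 6 subunits of the replicative helicase. Their pairs had a median r of 0.24, and 1 of 15 pairs was over 0.7. Mcm7 had values of 0.088, 0.033, -0.20 and -0.11 in males 1 to 4 and 0.10, 0.11, -0.056 and -0.033 in females 1 to 4, high in male 1 and females 1 and 2 and lowest in male 3. Mcm6 had values of 0.17, 0.17, -0.018 and 0.018 in males 1 to 4 and 0.11, -0.15, -0.023 and -0.053 in females 1 to 4. It was highest in males 1 and 2 and, unlike Mcm7, lowest in female 2. Mcm4 had values of -0.0025, -0.23, -0.25 and -0.11 in males 1 to 4 and 0.0025, 0.015, 0.0034 and 0.016 in females 1 to 4. It lay near 0 in 5 hearts and lower in males 2, 3 and 4. Mcm2, Mcm3 and Mcm5 varied less, with SDs of 0.053, 0.051 and 0.077. Pcna, the sliding clamp of DNA polymerase, had values of -0.012, -0.10, 0.0034 and -0.029 in males 1 to 4 and 0.22, 0.032, -0.0034 and 0.081 in females 1 to 4. Only female 1 stood clearly high, and its r with the mitotic mean was 0.038.

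The 26 measured genes among 28 other replication genes varied little as a list, with means between -0.029 in female 4 and 0.034 in male 1. Their mean correlated with that of the S-phase members at only r = 0.18. Male 3, the lowest heart for the S-phase members at -0.11, was at 0.014 in this list. Only Pole, the catalytic subunit gene of DNA polymerase epsilon, had an r over 0.7 with the mitotic mean (0.90), which is 3.85% of the list and near the 2.93% of all genes. The list's mean correlated with the mitotic mean at 0.69, but at 0.12 without female 4 and male 4, so this relation rests on those hearts.

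The G1 genes varied in different directions from each other, and their relation to the mitotic genes differed from gene to gene. The mean of the 5 was 0.019, 0.026, -0.035 and 0.065 in males 1 to 4 and 0.0081, -0.041, -0.010 and 0.051 in females 1 to 4. Male 4 and female 4 were highest, which are low hearts for mitotic genes, and female 2 was lowest. The G1 and mitotic means correlated at r = -0.28 (rho = -0.26), and without female 4 and male 4 at 0.80, so the direction rests on those 2 hearts. Without the D-type cyclins r was 0.16. The G1 and S-phase means correlated at 0.11 (rho = -0.071), or at -0.16 without males 3 and 4.

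The D-type cyclins, which activate the kinases that inactivate the retinoblastoma protein, each had an order of their own. Ccnd1 had values of 0.065, 0.046, -0.00010 and 0.12 in males 1 to 4 and -0.19, 0.00010, -0.047 and -0.019 in females 1 to 4, lowest in female 1 and highest in male 4. Ccnd2 had values of -0.050, 0.067, -0.14 and -0.090 in males 1 to 4 and 0.21, -0.084, 0.050 and 0.12 in females 1 to 4, and female 1 was here the highest heart. Ccnd3 had values of -0.057, -0.021, 0.10 and 0.031 in males 1 to 4 and -0.12, -0.067, 0.021 and 0.18 in females 1 to 4. It was highest in female 4 and lowest in female 1, the reverse of the mitotic genes, and had an r of -0.85 with their mean. Within the G1 group, Ccnd3 with E2f1 had an r of -0.79 and Ccnd1 with Ccnd2 -0.71, and the highest r was 0.51, of Ccnd1 with Ccne1. The pair of Ccnd3 with Kif20a had the lowest r of all 630 pairs of members, at -0.89. Ccne1, the E-type cyclin that partners Cdk2, had values of 0.021, 0.026, -0.13 and 0.22 in males 1 to 4 and -0.026, -0.033, -0.021 and 0.085 in females 1 to 4. Male 4 was highest, with female 4 next. E2f1, the transcription factor that acts at the G1/S boundary, was highest in female 1 (0.17) and lowest in female 4 (-0.11), with an r of 0.60 with the mitotic mean.

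Among 17 other G1 regulators, 1 (5.88%) had an r over 0.7 with the mitotic mean, the ubiquitin ligase gene Skp2 (0.702). Of the 7 genes of inhibitors of cyclin-dependent kinases 0 did. The inhibitor list was highest in female 4, at 0.11, and lay between -0.085 and 0.017 in the other hearts. Over the 8 arrays the inhibitor and mitotic means correlated at -0.43 (rho = -0.071), and the leave-one-out values ran from -0.76 to 0.15.

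**Figure D4:**
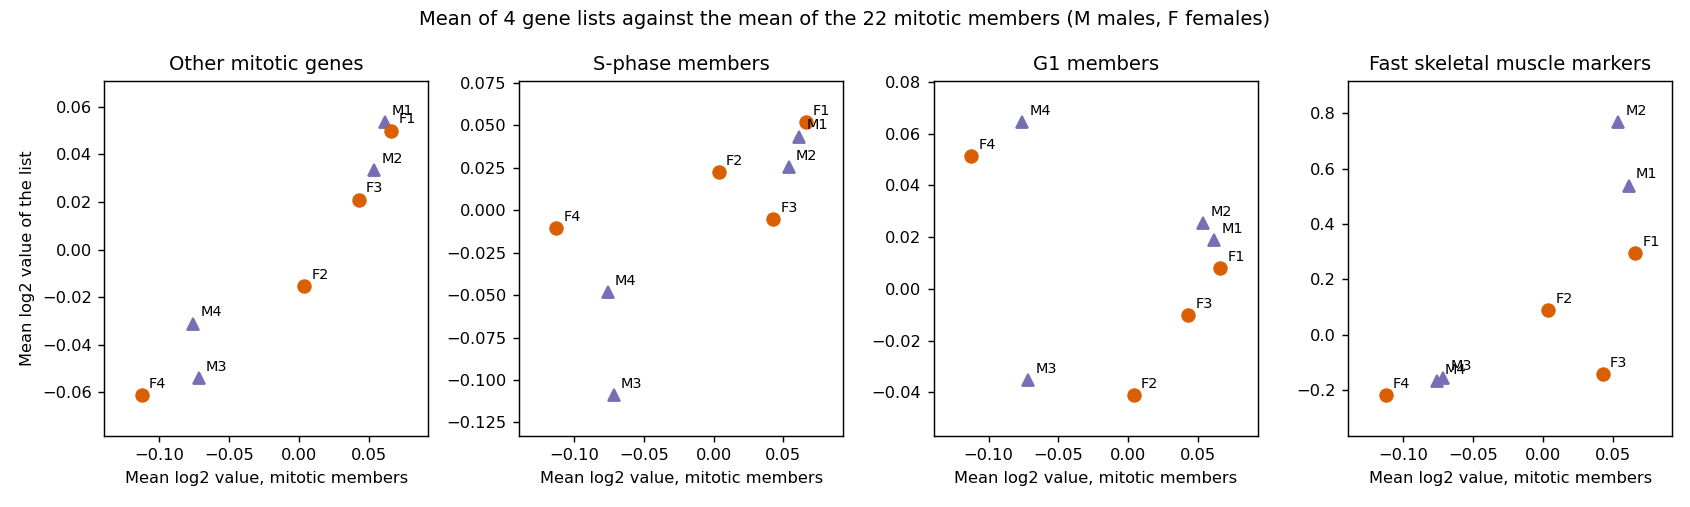
Mean log2 value per array of 4 gene lists (vertical axes, own scale each) against the mean of the 22 mitotic members (horizontal axes); triangles are males and circles females. The other mitotic genes follow the members at r = 0.96, the S-phase genes at 0.74 and the skeletal muscle markers at 0.75, and the G1 genes at -0.28.

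Markers of other cell types were set beside this variation. The fast skeletal muscle markers, 10 of 10 measured, had means of 0.54, 0.77, -0.16 and -0.17 in males 1 to 4 and 0.29, 0.088, -0.14 and -0.22 in females 1 to 4. They ranged from -0.17 to 0.77 in males and from -0.22 to 0.29 in females, and correlated with the mitotic mean at r = 0.75 (rho = 0.88), at 0.64 without female 4 and male 4, and at 0.82 with sex means subtracted. All 10 had an r above 0, against 48.4% of all genes, and 8 had an r over 0.7, against 2.93%. Myh4, the fastest skeletal myosin, was at 1.57, 2.23 and 1.03 in male 1, male 2 and female 1, the hearts with the highest mitotic means. Female 3 had a mitotic mean of 0.043 with a skeletal marker mean of -0.14. The part of skeletal muscle RNA in the mitotic variation was not tested.

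Of the other 11 marker lists, the 5 measured thymocyte markers correlated with the mitotic mean at 0.84 (rho = 0.83), over a small range of means from -0.027 to 0.053, and 0 of the 5 had an r over 0.7 by themselves. The cardiomyocyte list correlated at 0.47, but its genes went both ways. Of the 10, 3 were over 0.7 (Mybpc3, Ttn and Ryr2) and 4 were below 0: Nkx2-5 at -0.91, the farthest from 0 in the list, Pln at -0.40, Actc1 at -0.33 and Myl2 at -0.17. Fibroblast markers correlated at 0.056. The list values were negative for other resident and immune cells, with -0.48 for endothelial, -0.19 for macrophage and monocyte and -0.36 for lymphocyte markers. Of their 11, 13 and 11 measured genes, 0 were over 0.7. These lists went both ways too, with 2, 5 and 5 genes above 0. The correlation was -0.61 for smooth muscle and pericyte, -0.56 for adipocyte, -0.37 for neutrophil and mast cell, -0.31 for atrial muscle and -0.13 for the 2 measured erythroid markers. The atrial list differed most between hearts, from -0.92 to 0.20 in males and from -1.14 to 0.48 in females. The part of these cell types in the mitotic variation was not tested.

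The sexes were then compared gene by gene. Of the 36 cell cycle genes, 0 differed between females and males at an adjusted p under 0.05 by limma, in a table where 0.0316% of all genes did, and the lowest adjusted p was 0.485. At an unadjusted p under 0.05, 3 genes were higher in females (8.33%, against 3.63% of all genes) and 1 was higher in males (2.78%, against 3.32%). The means of 19 of 36 genes were higher in females (52.8%, against 49.6% of all genes). The median difference over the 36 genes was 0.0043, against -5.8e-04 over all genes. The 95% intervals reached a median of 0.13 to either side of the difference.

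Cenpf had the smallest p and the largest difference, 0.18 ± 0.048 (SE, limma adjusted p = 0.485). Its values were -0.24, -0.12, -0.20 and -0.020 in males 1 to 4 and 0.020, 0.025, 0.061 and 0.042 in females 1 to 4. Every female heart was above every male heart, by a small margin between male 4 and female 1. Mcm4 had a difference of 0.16 ± 0.054 (SE, limma adjusted p = 0.618), and its values, given above, also did not overlap, though male 1 and female 1 lay within 0.005 of each other. These were the 2 genes (5.56%) higher in females without overlap, against 1.89% of all genes. There were 0 higher in males without overlap, against 1.85%. Pcna had a difference of 0.11 ± 0.050 (SE, limma adjusted p = 0.716). Its sexes overlapped, and without female 1 the difference was 0.070. Ccnd1, the gene with the lowest p among those higher in males, had a difference of -0.12 ± 0.048 (SE, limma adjusted p = 0.669). Its sexes overlapped too, at male 3 and female 2, and without female 1 the difference was -0.080.

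**Figure D5:**
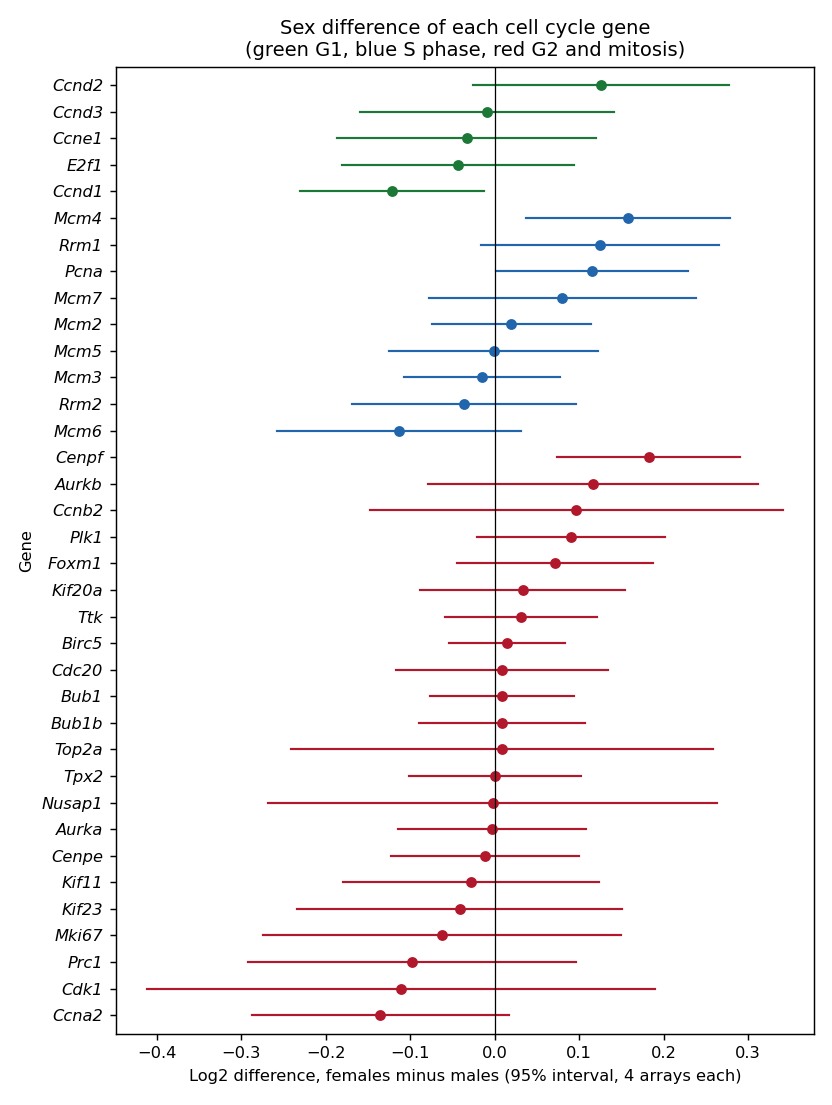
Log2 difference of females minus males for each of the 36 genes, by phase, with 95% intervals from limma over 4 arrays of each sex. The intervals of Cenpf, Mcm4 and Pcna lie above 0 and that of Ccnd1 below it; the other 32 include 0.

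As groups, the phases differed little between the sexes beside the spread within a sex. The mitotic mean was -0.0081 ± 0.076 (SD, n = 4) over the males and 4.1e-06 ± 0.079 (SD, n = 4) over the females, a difference of 0.0081, with 13 genes higher in females and 9 in males. The S-phase mean was -0.022 ± 0.070 (SD, n = 4) over the males and 0.015 ± 0.029 (SD, n = 4) over the females, a difference of 0.037, with 5 genes higher in females and 4 in males. The G1 mean was 0.018 ± 0.041 (SD, n = 4) over the males and 0.0021 ± 0.039 (SD, n = 4) over the females, a difference of -0.016, with 1 gene, Ccnd2, higher in females and 4 in males. Each difference was smaller than the SD of at least 1 sex, and the difference for the mean of all genes was 5.6e-04.

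The genes most spread between hearts had wide intervals. Cdk1 had a difference of -0.11 with a 95% interval from -0.41 to 0.19, Top2a 0.0083 with -0.24 to 0.26, Nusap1 -0.0024 with -0.27 to 0.26 and Ccnb2 0.097 with -0.15 to 0.34. The Cdk1 difference rested on single hearts: it was -3.7e-04 without female 4, -0.048 without male 1 and -0.055 without male 2, and reached -0.19 without male 4 or female 1. That of Ccnb2 ran from 0.026 without male 3 to 0.17 without female 2, and was 0.032 without female 1 and 0.049 without female 3. Those of Top2a and Nusap1 changed direction with single hearts left out. The intervals leave differences of up to about 0.41 on the log2 scale possible. At the other end, Birc5 had an interval from -0.054 to 0.084. In the G1 group, Ccnd2 had a difference of 0.13 ± 0.067 (SE, limma adjusted p = 0.753), which was 0.081 without female 1, and Ccnd3 one of -0.0093 ± 0.067 (SE, limma adjusted p = 0.991), whose direction changed without male 3, female 1 or female 2.

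The other lists of cell cycle genes gave no call either. By limma, 0 of 17 other G1 regulators and 0 of 7 inhibitors of cyclin-dependent kinases passed. Likewise 0 of 26 other replication genes and 0 of 35 other mitotic genes passed, against 0.0316% of all genes. At an unadjusted p under 0.05 there were, in this order, 1 (5.88%), 1 (14.3%), 1 (3.85%) and 0, each higher in females. Over all genes 3.63% were higher in females at that threshold and 3.32% higher in males. The means of 9 (52.9%), 5 (71.4%), 11 (42.3%) and 16 (45.7%) of the listed genes were higher in females, against 49.6% of all genes. Among the G1 regulators the genes with the smallest p were Rbl1, a relative of the retinoblastoma gene, with 0.10 ± 0.044 (SE, limma adjusted p = 0.716), and the kinase gene Cdk4 with 0.080 ± 0.051 (SE, limma adjusted p = 0.812). Among the inhibitors they were Cdkn2c with 0.19 ± 0.069 (SE, limma adjusted p = 0.636) and Cdkn1b with 0.14 ± 0.084 (SE, limma adjusted p = 0.791). In the replication list Prim1, the primase subunit gene with the smallest p of the 4 lists, had 0.12 ± 0.037 (SE, limma adjusted p = 0.564), and Uhrf1, which maintains DNA methylation after replication, 0.11 ± 0.047 (SE, limma adjusted p = 0.718). Of the mitotic list, Cdca3 had -0.082 ± 0.049 (SE, limma adjusted p = 0.795) and Mybl2, which encodes B-Myb, -0.066 ± 0.041 (SE, limma adjusted p = 0.808).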

How the data were processed

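Biotin-labelled RNA made from 100 ng of total RNA per heart was measured on 8 arrays; per the labels' protocols, collection was 3 to 4 hours after lights on. The deposited table holds log2 values by the authors for 34351 probe sets, each relative to its median over the arrays (0 within 1e-06). The log base was taken as 2; background correction and normalization: not given in the sources used here. Probe sets with 1 symbol in the platform annotation (23521) were averaged per gene; 1814 with several symbols were left out and 9016 were unnamed here. Females minus males was fitted over 22180 genes with limma 3.58.1 in R 4.3.3 (lmFit, eBayes, sex as only term), with Benjamini-Hochberg adjustment and a threshold of 0.05. The code was tested on simulated data.

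The members and lists were chosen with earlier results of these data known. Lists were described by counts, means and correlations over arrays, without set tests. Values per array are given for the 4 members with the smallest p, the 4 with the largest SD in each phase, and those with more than 1 probe set; of other lists, genes past the threshold or the 2 with the smallest p are named. Mki67, Prc1, Birc5 and other members and genes named beside these were chosen after their values were seen. Alternatives were quantile normalization, median centring, medians of probe sets, single probe sets, trend and robust settings, array weights, a replicate block, each array left out, other thresholds and other phase groupings.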

Additional observations from a re-analysis of the deposited data

Results flagged for a closer look

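The values of each of the 36 genes and the 3 phase means were checked within each sex for a heart far from the other 3, in 78 groups of 4. In 4 groups the gap to the nearest heart, as a share of the whole range, was over the critical value of Dixon's test at 95%. Chance gives such a gap in about 1 in 20 groups. Mki67 was at -0.35 in female 4, with the other females between 0.0092 and 0.056. Ccne1 was at 0.085 in female 4, with the other females between -0.033 and -0.021. Mcm3 was at -0.084 in male 4, with the other males between 0.026 and 0.039, and Birc5 was at -0.066 in male 4, with the other males between -0.0036 and 0.0056. Of the phase means 0 were set apart in this way.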

How the results depend on the processing

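The count of 0 cell cycle genes that differed between the sexes held under every alternative run, with a lowest adjusted p of 0.364. The count over all genes was 7, and 3 with quantile normalization, and it ran from 4 to 7 with an array left out, 4 being without male 3. Males and females share replicate numbers, but same-numbered hearts deviated together only weakly (r from 0.0062 to 0.14 over 4 pairs, 1 of them over 0.1, with 5 of 8 arrays correlating best with their own number). Male and female hearts of different numbers correlated at -0.13 to 0.095. With 4 pairs this cannot settle whether the numbers pair the hearts, and the main fit did not use them. With the replicate block the count over all genes was 8, and 0 members passed. Trend and robust settings, the replicate block and medians of probe sets leave each member's difference unchanged by design, so they could not turn a direction. Of the 36 differences, 16 kept their direction in all 15 alternatives, among them Cdk1, though at -3.7e-04 without female 4. In 17 genes it turned when an array was left out, with ranges of Ccnd3 from -0.070 to 0.033, Ccne1 from -0.088 to 0.029, Mcm2 from -0.0081 to 0.051, Mcm5 from -0.050 to 0.039, Mki67 from -0.10 to 0.033, Top2a from -0.059 to 0.071, Aurka from -0.042 to 0.028, Bub1 from -0.017 to 0.025, Bub1b from -0.021 to 0.025, Birc5 from -0.0020 to 0.022, Cdc20 from -0.033 to 0.051, Cenpe from -0.043 to 0.036, Kif11 from -0.071 to 0.014, Kif20a from -0.0091 to 0.068, Kif23 from -0.10 to 0.021, Tpx2 from -0.033 to 0.028 and Nusap1 from -0.082 to 0.093. Array weights gave Mcm5 0.00059, Aurka 0.0021 and Nusap1 0.021. Without the 3 arrays with the highest skeletal muscle mean, an alternative chosen after seeing the data, 10 turned: Mcm3 0.020, Mcm5 0.086, Rrm2 0.021, Aurka 0.063, Bub1b -0.0041, Cenpe 0.033, Kif11 0.024, Kif23 0.063, Nusap1 0.13 and Prc1 0.0093. The mean differences ran over the left-out arrays from -0.015 to 0.046 (mitotic), 0.0079 to 0.059 (S phase) and -0.034 to -9.1e-04 (G1). The correlation of S-phase with mitotic means was 0.69 to 0.89 with an array left out. With Ccna2, Mki67 and Top2a counted as S-phase genes it was 0.91. These genes had an r of 0.51, 0.81 and 0.94 with the other mitotic genes, so the move itself favours a higher value. The mitotic difference turned negative without male 3, male 4, female 1 or female 3. The correlation of G1 with mitotic means was 0.16 without the D-type cyclins, and -0.57 to -0.017 with an array left out, and that of G1 with S-phase means -0.53 to 0.39. The cause was not tested. Brightness is not held in centred values, so no filter on dim probe sets could be run.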

Other observations

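Genes outside the cell cycle lists were ranked by their Pearson r with the mean of the mitotic members over the 8 arrays. The 5 highest were Ralgapa1 (0.98), a regulator gene of Ral GTPases, Gm10139 (0.98), Vps13a (0.97), a lipid transfer protein gene, Ctrb1 (0.96), which encodes chymotrypsinogen, and Marchf10 (0.96). Ralgapa1 had log2 values of 0.067, 0.017, -0.15 and -0.11 in males 1 to 4 and 0.090, -0.017, 0.027 and -0.21 in females 1 to 4. For the mean of the S-phase members the 5 highest were Vmp1 (0.97), Usp49 (0.96), Gtf2ird2 (0.96), Galk2 (0.95) and Zyg11b (0.94). Over all 22180 genes, 649 (2.93%) had an r over 0.7 with the mitotic mean. These genes were picked as the closest of all genes, so their r is a description.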
